A study of Papaver somniferum with 12 samples.

Results

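Leaves of opium poppy (Papaver somniferum) taken at florescence were compared with leaves taken at bolting. Florescence is the date of the first bloom, and bolting is the time when a small bud is first seen at the tip of the stem. The comparison uses 6 of the 12 libraries of the series, namely 3 florescence libraries and 3 bolting libraries. They were chosen by the growth phase in their titles, and the column of each library was found by the code in its description. The other libraries are 3 from seedling leaves and 3 from jointing leaves, jointing being the phase of stem elongation, and they entered the fit and the description of the earlier levels. All plants were of the cultivar B1, grown in an experimental plot with no treatment named, and the methods of the study state that 3 independent samples were collected at each sampling point. Whether an independent sample was 1 plant is not given in the sources used here, and p-values measure the spread between these samples. Leaf age, plant age and season change together between the phases and cannot be told apart.

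Opium poppy makes benzylisoquinoline alkaloids, among them morphine, in its vascular tissue and stores them in laticifers, the cells that hold the latex. The leaf is the main site of photosynthesis before and during flowering. Around flowering the demands on a leaf change, as flowers and later the capsule become strong sinks for carbon and nitrogen. The values here are per unigene, a non-redundant transcript sequence that the authors built from pooled long reads. The table pairs no unigene with a gene name, and 0 of its 61856 identifiers occur in the gene table of assembly ASM357369v1. Functions, pathways and leaf markers were therefore not analysed here, and unigenes are described by their level, their change and their course over the phases. In whole leaves, fewer cells of a type and less RNA per cell cannot be told apart.

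The unit is RPKM, the reads of a unigene per kilobase of its length, relative to all mapped reads of the library. The summed RPKM was 998634 to 1050099 in the florescence libraries and 1140636 to 1175897 in the bolting libraries. The reads behind each value are unknown, so no counting error can be given. By the quality values of the study, RNA integrity tended to be lower at florescence than at bolting, with overlap. It was below the study's stated limit in florescence replicate 2, and a purity ratio was below its limit in bolting replicate 3. Whether RNA quality bears on the differences was not tested. Libraries of a phase were the closest to each other: the correlation across the 31242 tested unigenes on log2(RPKM + 1) was 0.961 to 0.966 within florescence, 0.961 to 0.978 within bolting and 0.902 to 0.953 between the phases. The value of 0.953 belonged to florescence replicate 1 and bolting replicate 1, and the other pairs between the phases reached at most 0.931. These libraries are thus the nearest pair across the comparison. The counts of calls kept and of unigenes switched on or off are given below without each of them. Most other values below include both.

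The most abundant unigenes held a smaller part of the signal in every florescence library than in any bolting library. The 10 highest unigenes of a library held 14.0%, 12.9% and 11.9% of the summed RPKM in florescence replicates 1 to 3, against 20.2%, 19.0% and 19.3% in bolting replicates 1 to 3. The groups did not overlap, with 12.9% ± 1.04 at florescence and 19.5% ± 0.642 at bolting (SD, n = 3 each). The difference of -6.59 percentage points reached the smallest p that 3 against 3 libraries allow (exact permutation test, two-sided, p = 0.1), so this design cannot pass 0.05 for a single value per library. The rest of the table moved the other way. The median tested unigene had 5.0, 5.16 and 5.46 RPKM in the florescence libraries and 3.75, 4.09 and 4.20 RPKM in the bolting libraries, again without overlap. The factor that the median of ratios gives each library, its typical level relative to the mean of the 12 libraries, was 1.14, 1.16 and 1.23 at florescence and 0.844, 0.920 and 0.947 at bolting. This profile was not particular to florescence. In the jointing libraries the factor was 1.11 to 1.28, the median 4.92 to 5.81 RPKM and the top 10 share 11.3% to 16.3%. In the seedling libraries these values were 0.830 to 0.901, 3.73 to 4.005 RPKM and 17.6% to 18.8%, nearer to bolting.

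**Figure D1:**
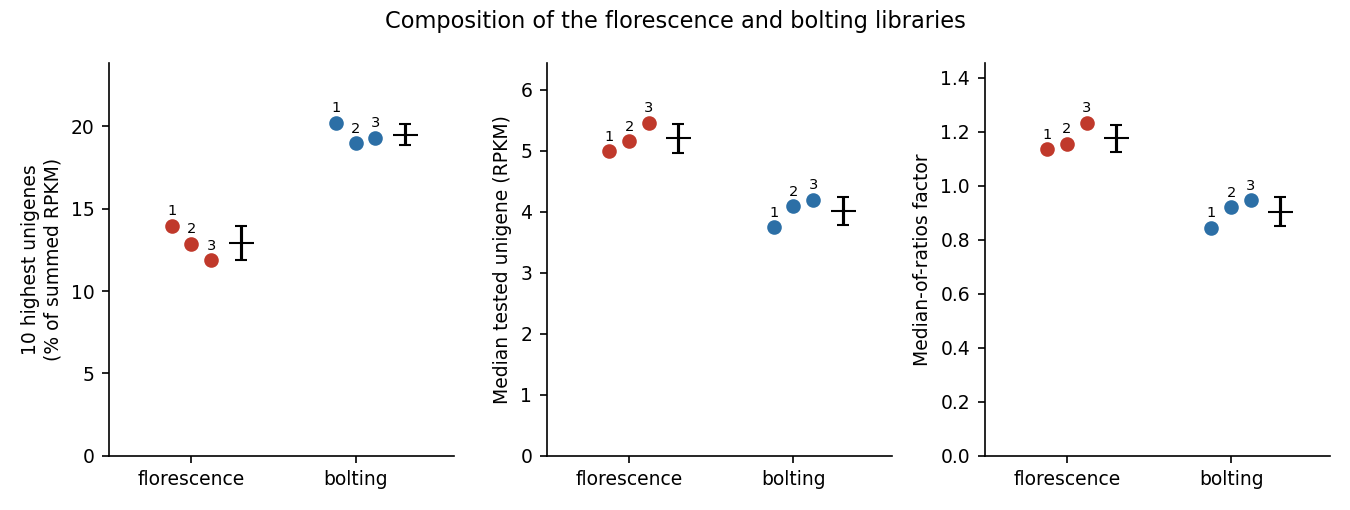
Share of the summed RPKM held by the 10 highest unigenes (%), median RPKM of the tested unigenes and median-of-ratios factor (no unit) for the 3 florescence and the 3 bolting libraries. Points are libraries with their replicate number, and the bar beside them is the mean ± SD. In each panel the florescence and bolting libraries do not overlap.

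To see which unigenes gave up signal without choosing them on the libraries compared, the highest unigenes were ranked by their mean over the seedling and jointing libraries. The 100 highest of these held 35.0%, 31.6% and 29.6% of the summed RPKM at florescence, against 49.4%, 45.1% and 45.8% at bolting. The means were 32.1% ± 2.77 and 46.8% ± 2.30 (SD, n = 3 each). The loss was therefore shared by many abundant unigenes, although 1 of them made up a large part. The highest of them alone held 2.34% ± 0.257 at florescence and 7.48% ± 0.0712 at bolting. Of the 100, 84 had a lower mean on the log2(RPKM + 1) scale at florescence than at bolting, and 90 did on scaled values. By the test described next, 32 of the 100 were called lower and 3 higher as deposited, against 2.60% and 5.47% of all tested unigenes. On scaled values 60 were called lower and 2 higher, against 4.46% and 2.23% of all.

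The number of unigenes at high levels followed the same pattern. At least 1000 RPKM was reached by 98 to 100 unigenes in the florescence libraries and by 111 to 119 in the bolting libraries. At least 15 RPKM was reached by 7462 to 7900 unigenes at florescence and 6154 to 6542 at bolting. As deposited, fewer unigenes thus stood at the top and more at middle levels. The count at 100 RPKM turned with the scaling. It was 1431 to 1559 at florescence and 1267 to 1304 at bolting as deposited, but 1194 to 1352 at florescence and 1360 to 1465 at bolting once scaled. After division by the median-of-ratios factors the count at 1000 RPKM kept this direction, with 82 to 94 at florescence against 121 to 137 at bolting, whereas the count at 15 RPKM was 6691 to 6960 at florescence and 6852 to 6996 at bolting, with overlap. Unigenes above 0.1 RPKM numbered 46166 ± 363 at florescence and 45323 ± 582 at bolting (SD, n = 3 each; exact permutation test, two-sided, p = 0.2). Of these counts, the one at 1000 RPKM was parted in the same direction under both scalings. On scaled values that count was 76 to 95 at jointing and 126 to 142 at seedling, so florescence was not alone in the lower count.

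Each unigene was tested with limma on log2(RPKM + 1) in a fit on all 12 libraries, with p-values adjusted over all tested unigenes by the method of Benjamini and Hochberg. Calls needed an adjusted p under 0.05 together with a change of 1 or more in size, which is 2-fold for values well above 1 RPKM. As deposited, 8.06% of the 31242 tested unigenes met these demands, with 1708 higher at florescence (5.47%) and 811 lower (2.60%). With each library divided by its median-of-ratios factor, 6.69% were called, 697 higher (2.23%) and 1392 lower (4.46%). The majority therefore changed direction with the scaling, from 67.8% higher among the deposited calls to 33.4% higher among the scaled calls. Over the whole table the median difference was 0.29 as deposited and -0.01 scaled, because the scaling removes a common shift by construction.

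The calls of both scalings were nested. All 697 unigenes called higher after scaling were also called higher as deposited, and 807 of the 811 called lower as deposited were also called lower after scaling. No unigene was called in opposite directions, as follows almost by construction from a scaling that lowers most differences by a similar small amount. The 1011 unigenes called higher in the deposited values alone had a median difference of 1.12 as deposited and 0.81 scaled. The 585 called lower in the scaled values alone had a median difference of -0.82 as deposited and -1.14 scaled. Deposited differences reached 2.59 in the set of 1011 and -1.42 in the set of 585. The 4 called lower in the deposited values alone had a median of -1.31 as deposited and -1.42 scaled. The 697 higher and 807 lower unigenes called under both scalings (4.81% of those tested, 2.23% higher and 2.58% lower) are called the shared calls here. They are the set whose call did not depend on the choice between these scalings.

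**Figure D2:**
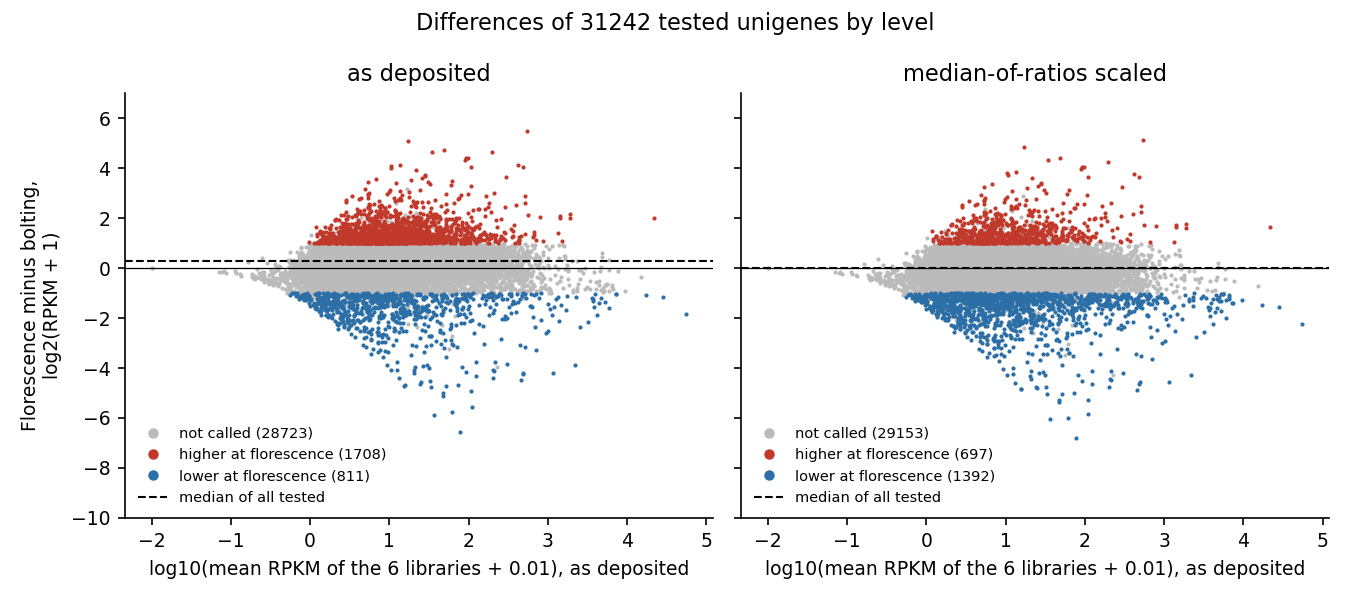
Difference between florescence and bolting on log2(RPKM + 1) for each tested unigene against the log10 of its mean RPKM over the 6 libraries plus 0.01, as deposited (left) and scaled by the median of ratios (right). Red points are called higher and blue points called lower at florescence. The dashed line is the median of all tested unigenes, at 0.29 on the left and -0.01 on the right.

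The shared calls were large in part. Of the 697 that rose, 181 differed by at least 2 and 36 by at least 3 on the deposited log2(RPKM + 1) scale, with a median of 1.64. Of the 807 that fell, 188 differed by at least 2 in size and 67 by at least 3, with a median size of 1.46. Together the risers held 8.10% ± 0.433 of the summed RPKM at florescence and 1.81% ± 0.525 at bolting. The fallers held 11.3% ± 1.45 at florescence and 28.7% ± 0.426 at bolting (SD, n = 3 each). These shares describe sets chosen on the same libraries, and single unigenes weighed heavily in them. Without PB.225.272, whose scaled call was lost in 9 of 12 fits that left out a library, the risers held 4.76% ± 0.461 at florescence and 1.01% ± 0.118 at bolting. Without PB.734.2622 the fallers held 8.97% ± 1.28 at florescence and 21.2% ± 0.365 at bolting, and both of these omissions were chosen after seeing the data. The libraries of the phases were free of overlap in both scalings for 692 of the risers and 786 of the fallers. Over the whole tested table the phases did not overlap for 55.5% as deposited (46.2% with florescence above, 9.31% below) and for 44.1% scaled (21.4% above, 22.7% below).

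Direction went with level. The tested unigenes were put into classes by their mean RPKM over the 12 libraries, which includes the libraries compared. In the class of 1 to 4 RPKM, 460 were higher and 175 lower as deposited, of 14102 unigenes. In the class of 15 to 100 RPKM, 459 were higher and 243 lower, of 5711. At 100 to 1000 RPKM the order turned in the deposited values, with 78 higher and 113 lower, of 1298. At 1000 RPKM and over, 5 were higher and 32 lower, of 106, so 30.2% of the most abundant unigenes were called lower. The lower calls therefore took a growing share of each class. The class of a unigene depends in part on its change, and near 1 RPKM a difference of 1 needs more than 2-fold. On scaled values lower calls outnumbered higher ones in all 5 classes, from 277 against 185 in the lowest to 60 against 4 in the highest. They too took a growing share, with 1.96%, 4.29%, 7.20%, 16.5% and 56.6% called lower from the lowest class to the highest. The share called higher lay between 1.31% and 3.77% in the 5 classes on that scale. The median difference in the highest class was -0.72 as deposited and -1.10 scaled.

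**Figure D3:**
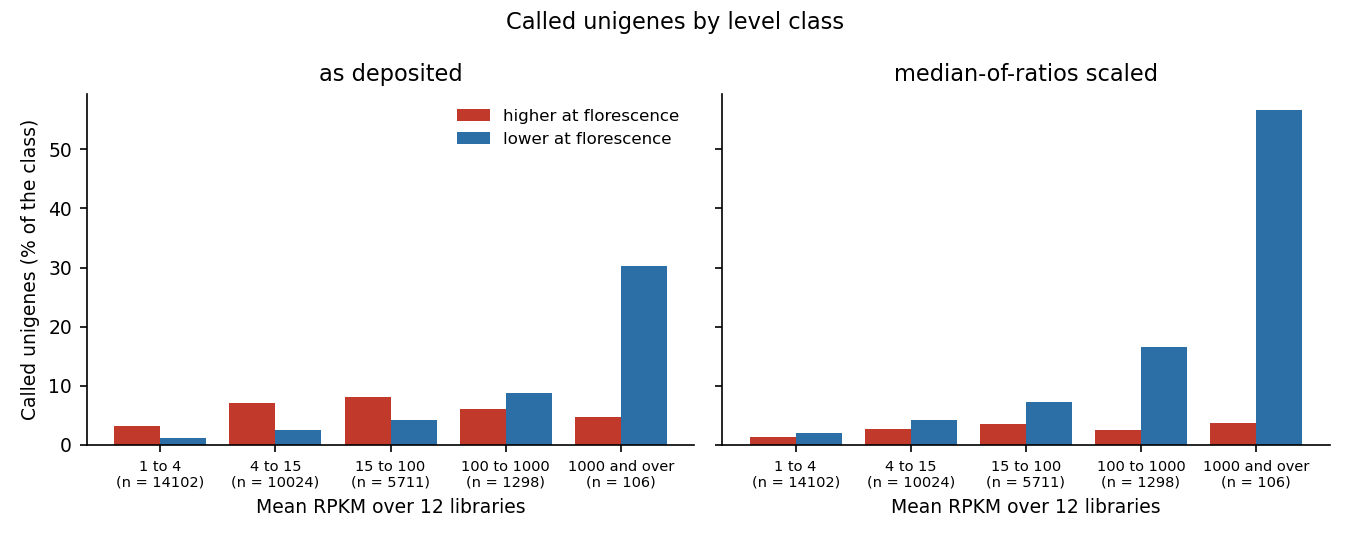
Share of the unigenes of each level class that was called higher (red) or lower (blue) at florescence, as deposited (left) and scaled by the median of ratios (right). Classes are by mean RPKM over the 12 libraries. The share called lower is largest at 1000 RPKM and over, at 30.2% as deposited and 56.6% scaled.

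The minimum mean of 1 RPKM fell in a dense part of the table. The 993 unigenes just inside it, with a mean from 1 to 1.1 RPKM, had a median of 1.20 RPKM at florescence and 0.893 RPKM at bolting, and 26 of them were called as deposited. The 1017 just outside, from 0.9 RPKM up, had 1.08 RPKM at florescence and 0.810 RPKM at bolting and were not tested.

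The unigenes named here are those with the largest rise and fall on the log2 scale and in RPKM, among 362 risers and 404 fallers that were shared calls without overlap and averaged 15 RPKM or more in their higher phase. PB.59261.1 had 988, 905 and 1293 RPKM in florescence replicates 1 to 3, against 34.2, 16.1 and 19.2 RPKM in bolting replicates 1 to 3. All florescence libraries thus stood far above all bolting libraries, and bolting replicate 1 was the highest of its group. The means differed 45.9-fold, and the difference was 5.51 ± 0.30 (SE) on log2(RPKM + 1) (limma, adjusted p = 1.66e-06). On scaled values it was 5.14 ± 0.29 (SE; limma, adjusted p = 3.47e-06). At seedling and jointing this unigene had 14.0 ± 5.36 and 11.4 ± 2.60 RPKM (SD, n = 3 each). By mean RPKM it ranked 93 among all unigenes at florescence, against 4514 at bolting.

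PB.225.272 had the largest rise in RPKM. Its values were 37663, 32553 and 33000 RPKM at florescence and 14802, 7069 and 5766 RPKM at bolting. By mean RPKM it was the highest of all unigenes at florescence, against rank 8 at bolting. The means differed 3.73-fold, and the difference was 2.02 ± 0.49 (SE) as deposited (limma, adjusted p = 0.00728) and 1.64 ± 0.56 (SE) scaled (limma, adjusted p = 0.0484). The scaled call was lost in 9 of the 12 fits that left out a library, with adjusted p from 0.00682 to 0.165 over these fits. The deposited call was kept in all 12. With no minimum RPKM the scaled call was lost as well (limma, adjusted p = 0.152). Bolting replicate 1, the nearest to the florescence libraries, had more than the other bolting libraries, and without it the differences were 2.43 as deposited and 2.10 scaled. Its level also varied widely before bolting, at 17919, 21272 and 14512 RPKM in the seedling libraries and 7915, 5067 and 1684 RPKM in the jointing libraries. The rise over bolting was thus a rise from an already abundant and unsteady level, and the seedling mean of 17901 RPKM lay between the means of both phases.

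PB.58840.3 showed the largest fall on the log2 scale. It had 0.53, 0.66 and 0.49 RPKM at florescence, against 94.6, 187.7 and 176.5 RPKM at bolting. The florescence libraries were close together, all under 1 RPKM, and bolting replicate 1 was the lowest of its group. The bolting mean was 273 times the florescence mean, and the difference was -6.56 ± 0.25 (SE; limma, adjusted p = 3.20e-07) as deposited and -6.79 ± 0.25 (SE; limma, adjusted p = 3.04e-07) scaled. It had been present throughout the earlier phases, with 97.7 ± 19.8 RPKM at seedling and 259.5 ± 50.1 RPKM at jointing (SD, n = 3 each).

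PB.734.2622 showed the largest fall in RPKM and was the most abundant unigene at seedling, jointing and bolting. It had 25204, 26692 and 20481 RPKM at florescence and 87987, 84549 and 86829 RPKM at bolting. The groups lay far apart, with bolting libraries within a narrow range. The difference was -1.85 ± 0.20 (SE; limma, adjusted p = 8.89e-05) as deposited and -2.23 ± 0.30 (SE; limma, adjusted p = 4.03e-04) scaled. With no minimum RPKM the scaled call was lost (limma, adjusted p = 0.223), at an equal difference. At florescence it was the second highest unigene, below PB.225.272, so the most abundant leaf unigene was a different one in each phase of this comparison.

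**Figure D4:**
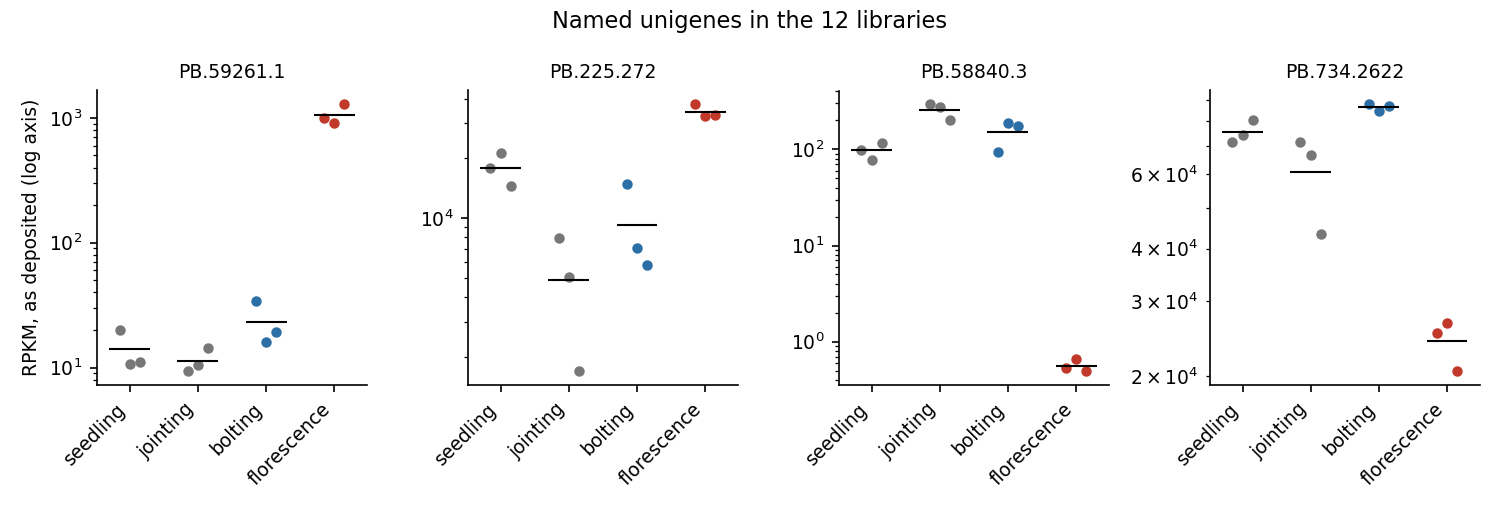
RPKM as deposited of the 4 named unigenes in the 12 libraries, on a log axis that differs between panels. Points are libraries, with replicates 1 to 3 from left to right in each phase, and lines are phase means. PB.59261.1 and PB.225.272 are highest at florescence (means of 1062 and 34405 RPKM), and PB.58840.3 and PB.734.2622 are lowest there (means of 0.56 and 24126 RPKM).

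The 20 with the largest rise under the same rule, PB.59261.1 among them, had florescence means from 20.5 to 1062 RPKM (median 81.2) and bolting means from 0 to 60.6 RPKM (median 3.24). Their differences ran from 3.54 to 5.51 as deposited, with limma adjusted p of at most 7.44e-04. For all 20 the highest phase of the 4 was florescence. Their place above bolting was set by the choice, and their medians were 10.6 RPKM at seedling and 3.44 RPKM at jointing. Of the 20, 1 was listed at 0 in every bolting library. The 20 with the largest fall, PB.58840.3 among them, had florescence means from 0 to 51.1 RPKM (median 1.49) and bolting means from 26.2 to 916 RPKM (median 96.6), and their differences ran from 4.25 to 6.56 in size. The phase in which these 20 were highest was jointing for 10 of them, bolting for 8 and seedling for 2. The medians of these strong fallers were 68.5 RPKM at seedling and 142.8 RPKM at jointing. As a group they had thus been expressed in leaves before bolting, and bolting was the peak for fewer than 10 of them.

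The lists of the most abundant unigenes overlapped in large part. Of the 10 highest by phase mean, 6 were the same at florescence and bolting, and of the 100 highest 77 were the same.

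The seedling and jointing libraries, which took no part in the contrast itself, show where the shared calls came from. On the scaled log2(RPKM + 1) scale the 697 risers had median levels of 2.76 (seedling), 2.38 (jointing), 2.37 (bolting) and 3.87 (florescence). The 807 fallers had 3.93, 4.23, 4.10 and 2.04 at the same phases in order. The medians of both sets were therefore nearer to their bolting than to their florescence level in the earlier phases, which does not hold for every unigene. Seedling and jointing means were both nearer to the bolting than to the florescence mean for 484 risers (69.4%) and 662 fallers (82.0%). They were both nearer to florescence for 26 risers (3.73%) and 8 fallers. The sets were chosen on the bolting and florescence values, so these counts are a description.

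The same can be read from whole libraries. The 3 florescence libraries lay above all 9 other libraries for 511 of the 697 risers (73.3%) and below all 9 others for 679 of the 807 fallers (84.1%) on scaled values. The 3 bolting libraries lay outside all 9 others on the opposite side for 110 risers and 95 fallers. The calls had already parted florescence from bolting, without overlap for 692 risers and 786 fallers. These shares are therefore not like for like with those of all tested unigenes. Over all tested unigenes florescence lay above the 3 bolting libraries for 21.4% and below them for 22.7%. The florescence libraries were above all 9 others for 10.5% and below for 11%. The bolting libraries were above their 9 others for 2.07% and below for 1.92%. Of the 4 phases, florescence thus had the most unigenes, 6731, outside every other library. Jointing had 3693, seedling 2616 and bolting 1246 on the same scale.

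**Figure D5:**
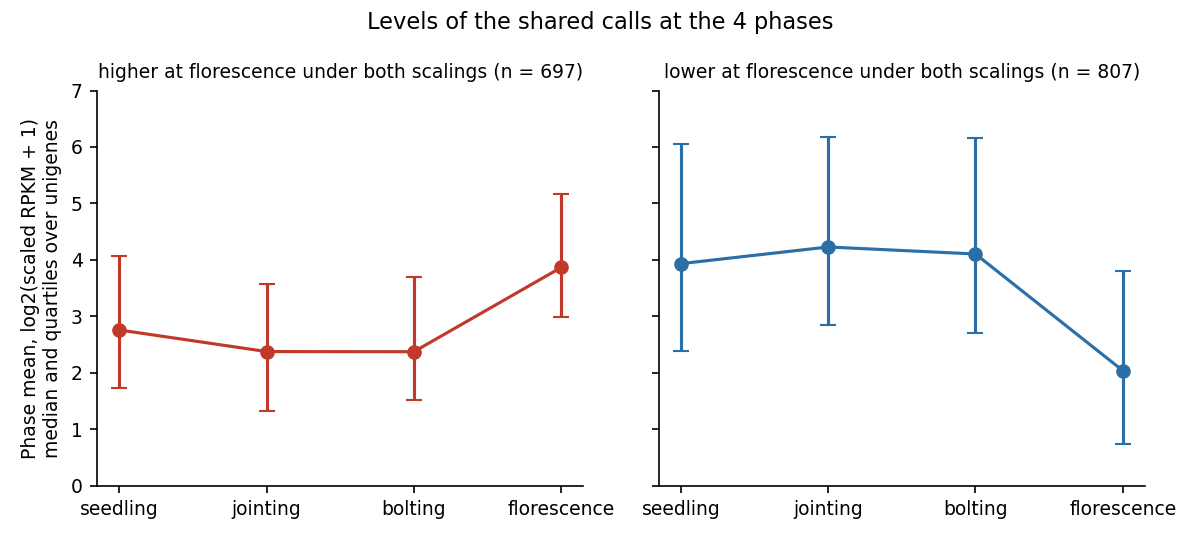
Level of the shared calls at the 4 phases, as the phase mean on log2(RPKM + 1) of median-of-ratios scaled values. Points are medians over unigenes and bars run from the lower to the upper quartile, for the 697 unigenes higher (left) and the 807 lower at florescence (right). Over the 3 earlier phases the medians lie between 2.37 and 2.76 (left) and between 3.93 and 4.23 (right), and at florescence they are 3.87 and 2.04.

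A part of the shared calls had moved the other way earlier. In the comparison of jointing with seedling, which shares no library with florescence against bolting, 1.15% of all tested unigenes were called higher at jointing and 3.80% lower on scaled values. Of the 697 risers, 9 were called higher at jointing (1.29%) and 166 lower (23.8%). Of the 807 fallers, 110 were higher at jointing (13.6%) and 56 lower (6.94%). Most of the risers called in this earlier comparison had thus been called lower at jointing, and most of such fallers higher, and the difference of these shares from the whole table was not tested. Seen from the other side, these 166 unigenes were 14.0% of all lower calls at jointing and the 110 were 30.6% of all higher calls. Both comparisons come from the same fit and share its estimate of the spread, so unigenes with little spread are called more easily in both and in either direction.

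Few unigenes were switched between absence and presence. At least 1 RPKM in all 3 florescence libraries and at most 0.1 RPKM in all 3 bolting libraries was found for 7 of the 61856 unigenes, with florescence means from 1.88 to 34.4 RPKM. The reverse was found for 9, with bolting means from 1.95 to 30.9 RPKM. Their earlier levels were as follows. Of the 7 switched on, 5 were at most 0.1 RPKM in all seedling and jointing libraries, while of the 9 switched off, 7 were at least 1 RPKM in every seedling library and 7 in every jointing library. The rule must hold in every library, so leaving a library out can only keep or raise these counts. Without bolting replicate 1 they were 18 switched on and 49 switched off, and without florescence replicate 1 they were 11 and 20.

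Bolting replicate 1 and florescence replicate 1, the nearest pair over the whole table, were also nearest to the other phase for most shared calls. This was not counted over all tested unigenes, so it cannot be read as a trait of the shared calls. Among the bolting libraries, bolting replicate 1 was the nearest to florescence for 360 of the 697 risers (51.6%) and 485 of the 807 fallers (60.1%) on scaled values. Among the florescence libraries, florescence replicate 1 was the nearest to bolting for 397 risers (57.0%) and 433 fallers (53.7%). Without bolting replicate 1, 1372 of the 1504 shared calls were kept, and without florescence replicate 1, 1362. Leaving out a library near the other phase tends to widen the differences, so this could be foreseen. The deposited calls rose from 2519 to 2775 without bolting replicate 1 and to 2871 without florescence replicate 1. The lowest number kept was 1217, without bolting replicate 3.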

How the data were processed

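According to the study, paired-end Illumina reads were mapped with HISAT2 (version 2.05 in the processing notes) to unigenes built from pooled PacBio reads, and expression was estimated with RSEM. The authors deposited RPKM with at most 2 decimals, although the methods name the fragment-based form, and no scaling between libraries is stated. RPKM removes depth but not composition. Near-identical sequences share reads, so single values of such unigenes are uncertain. All 12 columns were matched and 0 were left over. The study lists clean bases for each library, but the mapped reads behind each value are unknown.

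With limma 3.58.1 in R 4.3.3 the log2(RPKM + 1) values of 31242 unigenes, those averaging 1 RPKM or more, were fitted on all 12 libraries with phase as the sole factor and limma's trend option, as deposited and divided by the median of ratios over 43618 unigenes above 0 in all 12 libraries. The fit was tested on simulated data. The count test of the study was not applied to RPKM. Unigenes named are, among shared calls without overlap and with at least 15 RPKM in the higher phase, the largest rise and fall on the log2 scale and in RPKM. Members, lists and tests were chosen with earlier results of these data known. Alternatives were other scalings, pseudocounts, filters, thresholds, a replicate block and each library left out.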

Additional observations from a re-analysis of the deposited data

How the results depend on the processing

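Pseudocount 0.1 gave 4149 calls as deposited (2993 higher) and 3135 scaled (1119 higher). A minimum mean of 10 RPKM, which tests fewer unigenes, gave 1196 calls (728 higher, 468 lower) and 1121 scaled (299 higher, 822 lower). Without the fold threshold there were 13481 (11218 higher, 2263 lower) and 8714 scaled (4025 higher, 4689 lower). Higher and lower calls were 697 and 1392 with the median of ratios, 804 and 1227 with quantile normalization and 2741 and 649 with equal totals. The median difference of 0.29 became -0.0062 with the median of ratios, 0.42 with equal totals and 0.36 with pseudocount 0.1. The difference in detected unigenes, 843 as deposited, turned to -254 with the median of ratios (exact permutation test, p = 0.4). Unigenes switched on or off, 16 as reported, numbered 7 with 0 RPKM in the low phase (3 on, 4 off), and 14 were switched off on scaled values. The causes were not tested.

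With a library left out the deposited calls ran from 2247 to 2871 (higher 1531 to 2032, lower 692 to 965), the scaled calls from 1877 to 2365 (594 to 814, 1248 to 1551), the median difference from 0.25 to 0.31, the top 10 share from -7.11 to -6.07 percentage points, detected unigenes from 525 to 1095, and unigenes switched from 20 to 67 (on 10 to 18, off 9 to 49). With the replicate block there were 2524 calls as deposited and 2096 scaled, and with the block on the 6 libraries 2554 and 2137. Same-numbered florescence and bolting libraries correlated in their deviations at 0.42, 0.46 and 0.07. The labels state no pairing, so whether the numbers pair these libraries was not settled. The block changed no call of a named unigene. With no minimum RPKM the scaled calls of PB.225.272 (limma, adjusted p = 0.152) and PB.734.2622 (0.223) were lost. No other alternative ended the call of PB.59261.1, PB.58840.3 or PB.734.2622. The scaled call of PB.225.272 was also lost at an adjusted p under 0.01. Summing unigenes of a locus was not run, since all 61856 identifiers differ in their first number. The unknown number of reads behind each value limits the low values.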
